A study of Mus musculus with 6 samples.

Results

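Inflammatory cytokine genes were followed in whole mouse lung, 10 of the 18194 genes that a single-symbol probe set names: the IL-6 family members Il6, Osm, Lif and Il11, the colony-stimulating factors Csf1, Csf2 and Csf3, and Il1b, Tnf and Il33. They were read by 14 probe sets with a single gene symbol among the 45101 probe sets of an Affymetrix mouse array. Every such probe set was taken, whatever its values. The genes were chosen by name, but with the log2 differences between high-pressure mutant and control lungs already known for some of them (Csf2 and Osm), so that comparison is given as a description without a test. RVSP is right ventricular systolic pressure, which is raised in pulmonary hypertension.

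Each of the 6 arrays held RNA from 1 FVB/N mouse, with 2 mice in each of 3 groups. Control mice carried the SM22-rtTA transgene, a doxycycline-dependent transactivator under the smooth muscle promoter SM22, without a mutant receptor. The other mice were heterozygous for SM22-rtTA and for TetO7-BMPR2-R899X, so doxycycline switches on a truncated BMP type II receptor mainly in smooth muscle; the mice of one group had near normal RVSP at death and those of the other had substantially elevated RVSP. These groups are called normal RVSP and high RVSP. Doxycycline was fed to all groups, controls included; feeding began at an age of 4 weeks, lasted 9 weeks and ended with death at 13 weeks. The series describes all mice as female, although the label of control 1 names no sex; the 9 probe sets of Y-linked genes read 1.08 to 38.8 on the 6 arrays. Replicate numbers follow accession order and pair no mice. Lung identity was clear from Sftpc, the surfactant protein of alveolar type 2 cells, at 26212 to 40876. Control 1 and normal RVSP 1 stood apart, with mean log2 distances of 0.496 and 0.492 to the other arrays, against 0.400 to 0.420 for the rest, and 3'/5' ratios of the beta-actin control probe sets of 1.89 and 1.64 against 1.27 to 1.45. The same ratios for Gapdh did not mark these arrays in that way, at 0.973 and 0.7 against 0.721 to 1.03 for the rest. Because of the distances and the beta-actin ratios, some cytokine values are also given without control 1 and normal RVSP 1.

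Cytokines of the IL-6 family bind a ligand-specific receptor chain and signal through the shared subunit Il6st to Jak kinases and Stat3, whereas colony-stimulating factors drive the production and survival of macrophages, granulocytes or both. Il1b and Tnf activate NF-kappaB, and Il33 is stored in the nucleus of lung structural cells and released on injury. Many of these transcripts are short-lived, because proteins such as Zfp36 bind their AU-rich tails, and in whole lung they come from few cells. In a homogenate, fewer cells of a type and less RNA per cell cannot be told apart.

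The arrays of high RVSP lay above both controls for 5 of the genes, Il6, Osm, Csf2, Csf3 and Tnf, in a comparison where 17.2% of all probe sets lay higher without overlap; nothing is read from this count. Of these, Il6, Csf2 and Tnf had a RefSeq promoter window, and their promoters are shown so that the regulatory letters of genes described below can be seen. The 100 bases just upstream of the start are printed 5′ to 3′ from RefSeq, build GRCm38.p6, at chr5:30013014-30013113 on the plus strand for Il6, chr11:54249900-54249999 on the minus strand for Csf2 and chr17:35202008-35202107 on the minus strand for Tnf. Capitals mark a match to the kappaB consensus, the element bound by NF-kappaB.
Il6: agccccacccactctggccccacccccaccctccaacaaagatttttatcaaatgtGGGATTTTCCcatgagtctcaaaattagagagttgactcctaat
Csf2: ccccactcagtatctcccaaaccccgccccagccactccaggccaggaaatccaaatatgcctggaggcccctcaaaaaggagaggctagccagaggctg
Tnf: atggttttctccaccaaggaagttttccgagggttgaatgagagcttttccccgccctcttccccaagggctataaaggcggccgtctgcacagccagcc

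The kappaB match of Il6 lies 44 to 35 bases before the start. The 250 bases upstream of each start were searched on both strands for the kappaB consensus, for the AP-1 motif TGANTCA and for the Stat motif TTCNNNGAA. Of 32851 such windows in the RefSeq table, 3.9% held a kappaB match, 6.75% an AP-1 match and 7.02% a Stat match. The 10 windows of 8 cytokine genes held kappaB matches for Il6 and Csf1 (GGAAAGTCCC, 154 to 145 bases upstream). AP-1 matches stood in the windows of Il6 (TGAGTCA, 249 to 243 bases upstream), Lif (TGACTCA, 228 to 222 bases upstream) and 1 of the 2 starts of Il11 (TGAGTCA, 98 to 92 bases upstream). No window of these genes held the Stat letters, and none of the 3 motifs was found in the windows of Csf2, Il1b, Tnf and Il33. The matches describe the letters only and were not compared with binding data. Osm and Csf3 had no entry.

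Values are intensities, the brightness of a probe set after the authors' scaling, and differences are on the scale log2(intensity + 16), first group minus second. Values after ± are standard errors from limma, with n = 2 mice in each group, and are given for the 9 probe sets, of 6 genes, that passed a filter on low values. The other 5, the probe sets of Lif, Il11, Csf3 and Tnf, had means in the lower 40% of the array (below an intensity of about 74.9) and were not tested; for these the pooled standard deviation within groups (SD) is given. That spread between replicate mice is the measure used below for whether a difference stands clear of it.

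**Figure D1:**
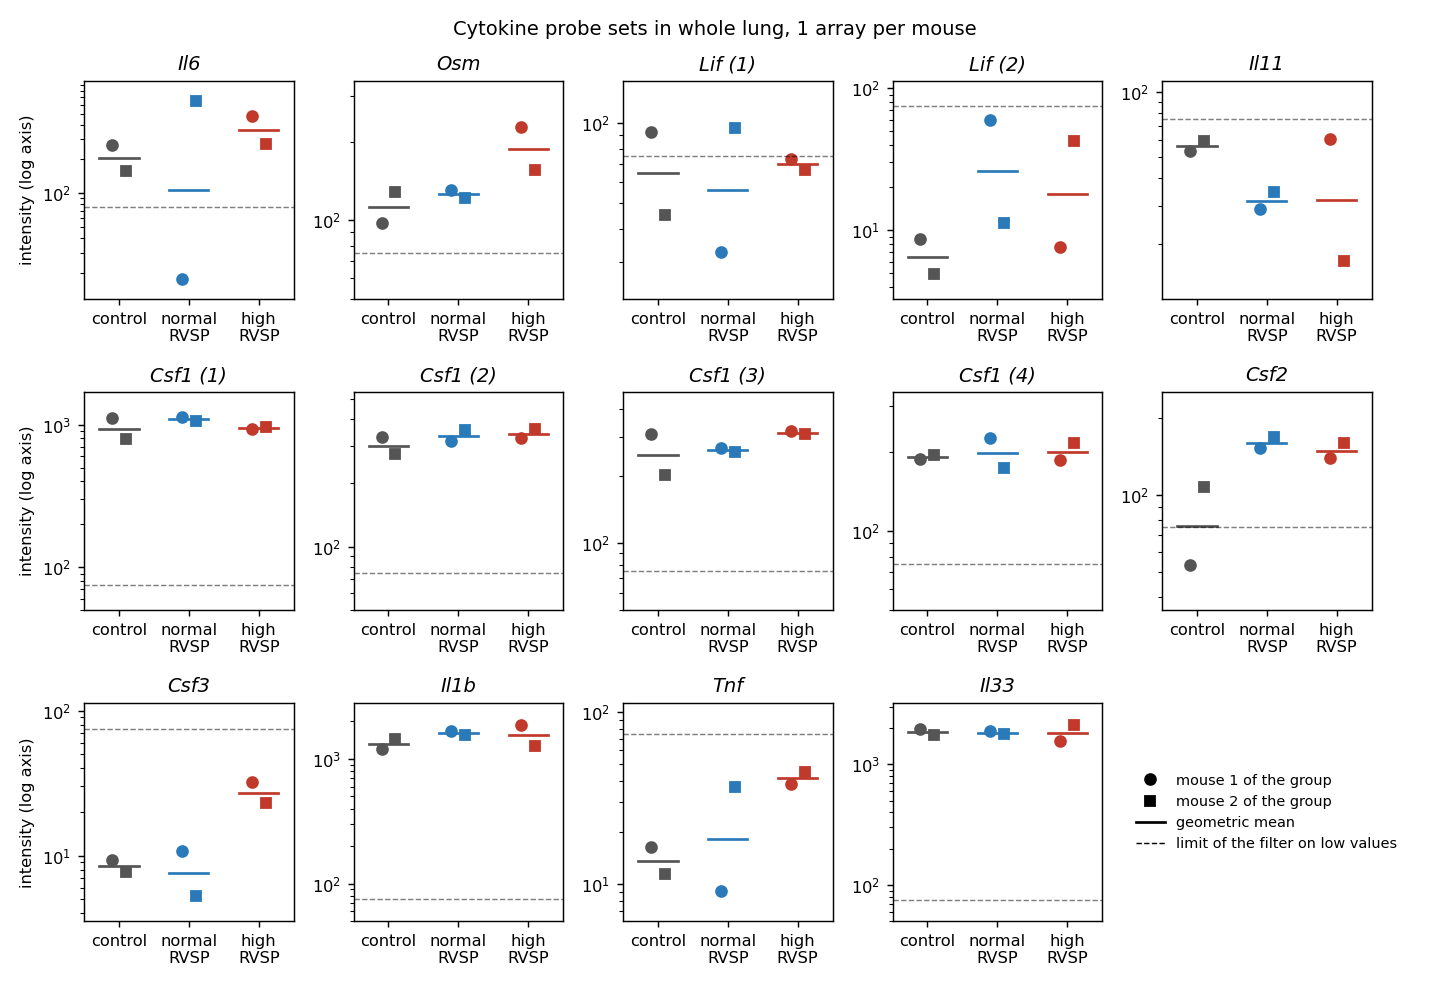
Intensity on a log axis of the 14 cytokine probe sets, numbered by brightness where a gene has several, in control, normal RVSP and high RVSP lungs. Points are single mice, bars are geometric means of 2 mice, and the dashed line is the filter limit of 74.9. Il6 spans 17.5 to 648 within normal RVSP, while Csf1, Il1b and Il33 stay within narrow ranges.

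Il6, the founding ligand of its family and an inducer of the acute phase response, had the widest range. Its intensities were 264 and 157 in the controls, 17.5 and 648 in the normal RVSP mice, and 474 and 269 in the high RVSP mice. Both the lowest and the highest reading thus came from the normal RVSP group, 37.1-fold apart. The lowest, 17.5, lay within the range of the Y-linked probe sets, so the size of this ratio is not firm. Differences that use that reading depend on the constant added before the log. For normal RVSP against control, the Il6 difference was -0.90 with 1 added and -0.16 with 64. The high RVSP arrays lay above the controls, the lower of them only narrowly (269 against 264), and both lay inside the span of the normal RVSP group. The log2 difference was -0.56 ± 1.12 for normal RVSP against control and 1.33 ± 1.12 for high against normal RVSP, with adjusted p of 0.989 and 1.0 in limma. Against control, high RVSP differed by 0.76 ± 1.12. The group mean of normal RVSP depended on which of its mice was kept: without normal RVSP 1 its difference from control was 1.59 and without normal RVSP 2 it was -2.72. The difference between high and normal RVSP likewise ran from -0.83 without the former to 3.48 without the latter. In that last fit, where 1 array stood for the normal RVSP group and was assumed to vary like the others, Il6 had an adjusted p of 0.0439 in limma. With control 1 and normal RVSP 1 both left out, Il6 had a difference of 1.94 for normal RVSP against control (adjusted p = 0.00728 in limma), again from single arrays. Left out in turn, the arrays gave 0.37 to 1.16 for high RVSP against control. Il6 therefore has no group order that stands clear of the spread between mice.

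Osm, oncostatin M, is made by activated macrophages, neutrophils and T cells. Its intensities were 98.2 and 128 in the controls, 131 and 122 in normal RVSP and 228 and 156 in high RVSP. Both high RVSP arrays lay above the other 4, which overlapped. Its difference was 0.15 ± 0.28 for normal RVSP against control (adjusted p = 0.989 in limma) and 0.53 ± 0.28 for high against normal RVSP (adjusted p = 1.0 in limma). For high RVSP against control it was 0.68 ± 0.28. With each array left out in turn this last difference ran from 0.43 without high RVSP 1 to 0.93 without high RVSP 2.

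Lif, leukaemia inhibitory factor, was read by 2 dim probe sets that ordered the arrays differently. The brighter gave 92.3 and 45.2 in the controls, 32.7 and 95.7 in normal RVSP and 73.3 and 66.7 in high RVSP. All groups overlapped on it, and its SD was 0.59. The dimmer gave 8.61 and 4.89 in the controls, 60.1 and 11.3 in normal RVSP and 7.55 and 42.7 in high RVSP. Its SD was 0.81, and only 60.1 and 42.7 exceeded the highest Y-linked value of 38.8. On the dimmer one both normal RVSP arrays lay above the controls, a difference of 1.01, whereas the brighter had a difference of -0.14, which was 0.46 without normal RVSP 1 and 0.27 without control 1. Il11, a fibrosis-linked member of the family, gave 53.4 and 59.8 in the controls, 28.8 and 34.8 in normal RVSP and 61.1 and 16.7 in high RVSP. Both normal RVSP arrays were below both controls, by -0.61 with an SD of 0.51. The high RVSP arrays were the highest and the lowest of all 6. Both normal RVSP readings and the 16.7 of high RVSP lay within the range of the Y-linked probe sets.

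Csf2, GM-CSF, which alveolar macrophages need in order to mature, had all 4 transgenic mice above both controls. The share of all probe sets in that order was not counted, so nothing is read from it. Its intensities were 53.4 and 108 in the controls, 153 and 168 in normal RVSP and 139 and 160 in high RVSP. The transgenic groups overlapped with each other. normal RVSP differed from control by 0.92 ± 0.33 (adjusted p = 0.987 in limma), and high from normal RVSP by -0.09 ± 0.33 (adjusted p = 1.0 in limma). high RVSP differed from control by 0.83 ± 0.33. The controls themselves were 0.84 apart on the log2 scale. Without control 1, the lowest array and one of those that stood apart, the differences from control were 0.50 for normal and 0.41 for high RVSP; without control 2 they were 1.34 and 1.25. The 2 comparisons share the control mice.

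Csf1, the growth factor of macrophages, was read by 4 probe sets that all passed the filter. The brightest gave 1106 and 789 in the controls, 1126 and 1068 in normal RVSP and 927 and 956 in high RVSP. The high RVSP arrays lay between the controls and below both normal RVSP arrays, a difference of -0.22 ± 0.20 from the latter. Against control the high RVSP difference of this probe set was 0.01, and 0.25 without control 1; that of normal RVSP was 0.23, and 0.47 without control 1. The third probe set by brightness ordered these groups the other way, with 318 and 308 in high RVSP above 267 and 257 in normal RVSP (0.24 ± 0.25). On the remaining probe sets the high and normal RVSP groups overlapped, with differences of 0.03 ± 0.21 and 0.02 ± 0.24. Against control the 4 probe sets spanned 0.04 to 0.23 for normal and 0.01 to 0.30 for high RVSP. The fourth carries the suffix with which Affymetrix marks probes that may also bind other transcripts. No direction for Csf1 was shared by its probe sets between the pressure groups.

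Csf3, G-CSF, the factor that drives neutrophil production, read low on every array. It gave 9.38 and 7.74 in the controls, 10.8 and 5.27 in normal RVSP and 32.1 and 22.9 in high RVSP. Both high RVSP arrays were above the other 4, by 0.82 against control and 0.86 against normal RVSP with an SD of 0.19, but all 6 readings were within the range of the Y-linked probe sets in these mice. At such low readings the size depends on the pseudocount: the difference from control was 1.56 with a pseudocount of 1 and 0.33 with 64.

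Il1b, the secreted product of the inflammasome in monocytes and neutrophils, gave 1203 and 1434 in the controls, 1664 and 1550 in normal RVSP and 1856 and 1278 in high RVSP. Normal RVSP lay above control without overlap, by 0.29 ± 0.21 (adjusted p = 0.987 in limma). The high RVSP arrays held the highest and the second lowest reading, and differed from control by 0.23 ± 0.21 and from normal RVSP by -0.06 ± 0.21.

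Tnf, a master activator of NF-kappaB, read 16.4 and 11.4 in the controls, 9.13 and 36.8 in normal RVSP and 38.4 and 45.0 in high RVSP. The high RVSP arrays were the highest pair, 0.95 above control and 0.66 above normal RVSP with an SD of 0.45. The former was 1.54 with a pseudocount of 1 and 0.44 with 64. Only the high RVSP 2 reading of 45.0 exceeded the highest Y-linked value of 38.8. Without normal RVSP 1 the difference between high and normal RVSP was 0.13, and that between normal RVSP and control was 0.83 in place of 0.29. Il33, an alarmin, varied little, at 1965 and 1762 in the controls, 1874 and 1791 in normal RVSP and 1568 and 2134 in high RVSP. Its differences were -0.02 ± 0.19, -0.02 ± 0.19 and -0.002 ± 0.19 in the 3 comparisons, and the high RVSP mice held both its lowest and its highest reading.

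**Figure D2:**
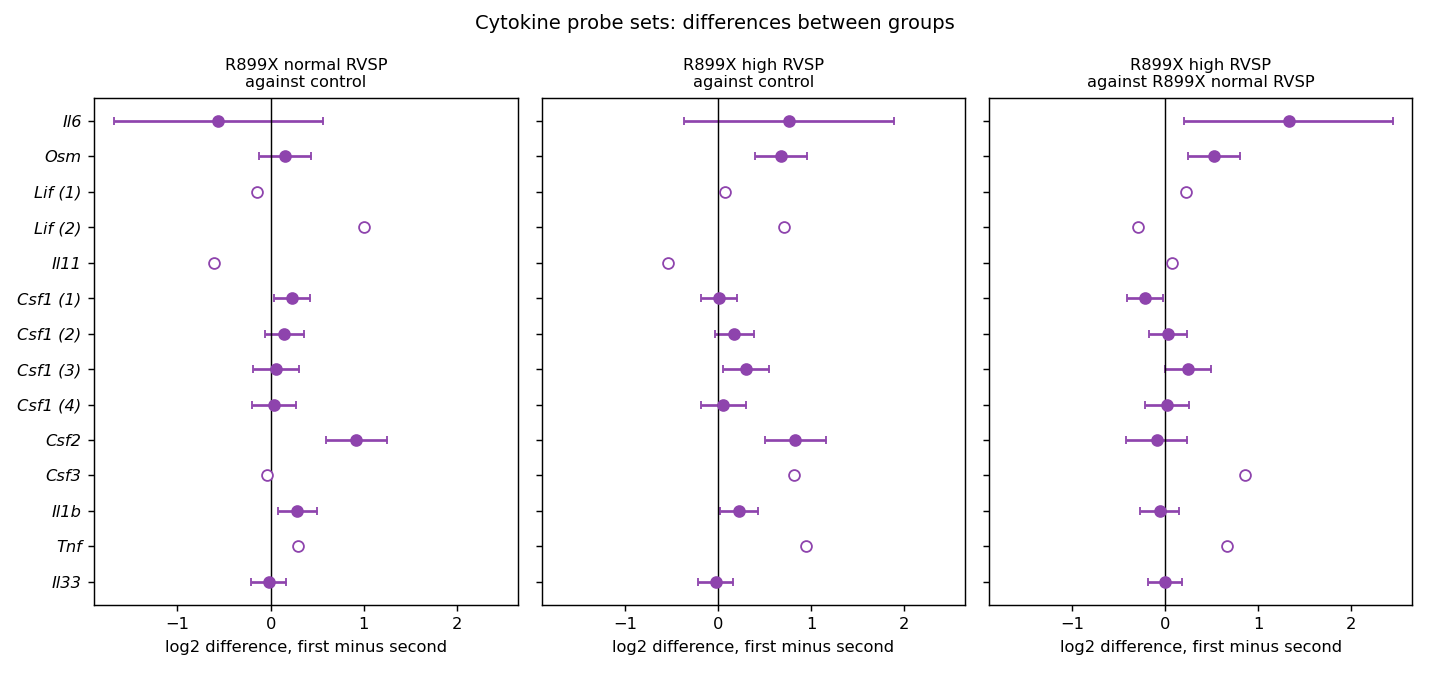
Differences on the log2(intensity + 16) scale for the 14 cytokine probe sets in the 3 comparisons. Filled points with bars are limma estimates with standard errors for the 9 tested probe sets; open points are probe sets below the filter, without a test. Csf2 is to the right of 0 against control in both transgenic groups, at 0.92 and 0.83, and Il6 has the widest error, 1.12.

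Counted over all 14 probe sets, filter or not, 9 were higher and 5 lower in normal RVSP than in control, with a median difference of 0.10. Over all 27022 tested probe sets the median of this comparison was -0.001. Of all 45037 probe sets besides controls, 46.5% were higher in it. The groups did not overlap for 3 cytokine probe sets in the higher direction (Lif, Csf2 and Il1b), where 13.3% of all 45037 probe sets besides controls did so, and for 1 in the lower direction (Il11), where 17.1% did. In high against normal RVSP 9 were higher and 5 lower, with a median of 0.05 against 0.01 over all tested probe sets. Of all probe sets besides controls, 52.7% were higher there. There 4 lay higher without overlap (Osm, Csf3, Tnf and the third Csf1 probe set), against a background of 17.6%, and 1 lower (the brightest Csf1 probe set), against 14.8%. In high RVSP against control 12 were higher and 2 lower, with a median of 0.26 against -0.004 over all tested probe sets. Of all probe sets besides controls, 47.6% were higher in this comparison. Here 5 lay higher without overlap and 0 lower, beside 17.2% and 18.4% of all probe sets. This is the comparison that was known when the genes were proposed, so nothing is read from these counts. Without control 1 its median was 0.45. Without control 1 or without normal RVSP 1 the median for normal RVSP against control was 0.22 or 0.21, and without control 2 it was 0.006. For high against normal RVSP it was 0.19 and 0.24 without the first or second high RVSP mouse. Since 4 of the 14 probe sets read Csf1, the counts were also taken over the 10 genes, each by its brightest probe set. Then 5 were higher and 5 lower in normal RVSP against control (median 0.07), 6 and 4 in high against normal RVSP (median 0.15), and 8 and 2 in high RVSP against control (median 0.45). Nothing is read from the last of these, because that comparison was known.

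With limma and Benjamini-Hochberg adjustment over all tested probe sets, 0 of the 9 tested cytokine probe sets passed in normal RVSP against control and 0 in high against normal RVSP, where 0.0% of the array passed in each. In high RVSP against control 0.0% of the array passed as well. At an unadjusted p under 0.05 in limma, 1.71% of tested probe sets were higher and 2.64% lower in the first of these, Csf2 among the higher; in high against normal RVSP 1.67% were higher and 0.951% lower, none of them a cytokine probe set. In high RVSP against control, 3.64% were higher and 2.01% lower. No cytokine is named by that threshold there, because the comparison was known beforehand. The Csf2 difference between normal RVSP and control uses the same 2 control mice, so it is not read as support. The ordinary linear model also passed 0 probe sets in every comparison. An exact permutation test of 2 against 2 mice cannot go below p = 0.333 and was not used.

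Array by array, high RVSP 1 held the highest reading for 5 of the 14 probe sets, and each of the other transgenic mice for 3. Neither control held the highest reading of any. The lowest readings were spread over all mice, with 3 and 4 in the controls, 3 and 2 in normal RVSP and 1 in each high RVSP mouse. How often each array was highest or lowest over all probe sets was not counted. High RVSP against control was also known when the genes were proposed, so nothing is read from these counts. Averaged over the 10 genes (brightest probe set each), the log2 deviation from the mean of all arrays was -0.10 and -0.19 in the controls, -0.40 and 0.22 in normal RVSP and 0.37 and 0.10 in high RVSP. Both high RVSP mice were thus above both controls, and the normal RVSP mice lay on either side. Over all 14 probe sets the deviations were -0.09 and -0.23, -0.20 and 0.13, and 0.24 and 0.16 in the same order, so that control 2 was then the lowest array. The reading of 17.5 for Il6 is a part of both averages for normal RVSP 1.

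Immediate early genes respond within minutes to stimulation or tissue handling. They had the same lowest and highest arrays as the average over the 10 genes. Their part in the cytokine readings was not tested. Their 16 measured genes had mean deviations of -0.34 and -0.02 in the controls, -0.43 and 0.29 in normal RVSP and 0.41 and 0.10 in high RVSP. normal RVSP 1 was the lowest and high RVSP 1 the highest array for both this list and the 10-gene average. The 19 Stat3 response genes had the same extremes, at -0.165 and 0.176, so the likeness is not particular to immediate early genes. The controls stood in opposite order, control 1 being the lower for immediate early genes and control 2 for the 10-gene average. The summed intensity of the immediate early list was 53461 and 67976, 53173 and 81976, and 85213 and 69403 in the same order of groups. Among them, Fos had 5218 and 6615 in the controls, 4732 and 10319 in normal RVSP and 10272 and 8075 in high RVSP. In high RVSP against control 15 of the 16 were higher and 10 of them did not overlap, beside 49.3% and 19.1% of tested probe sets.

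**Figure D3:**
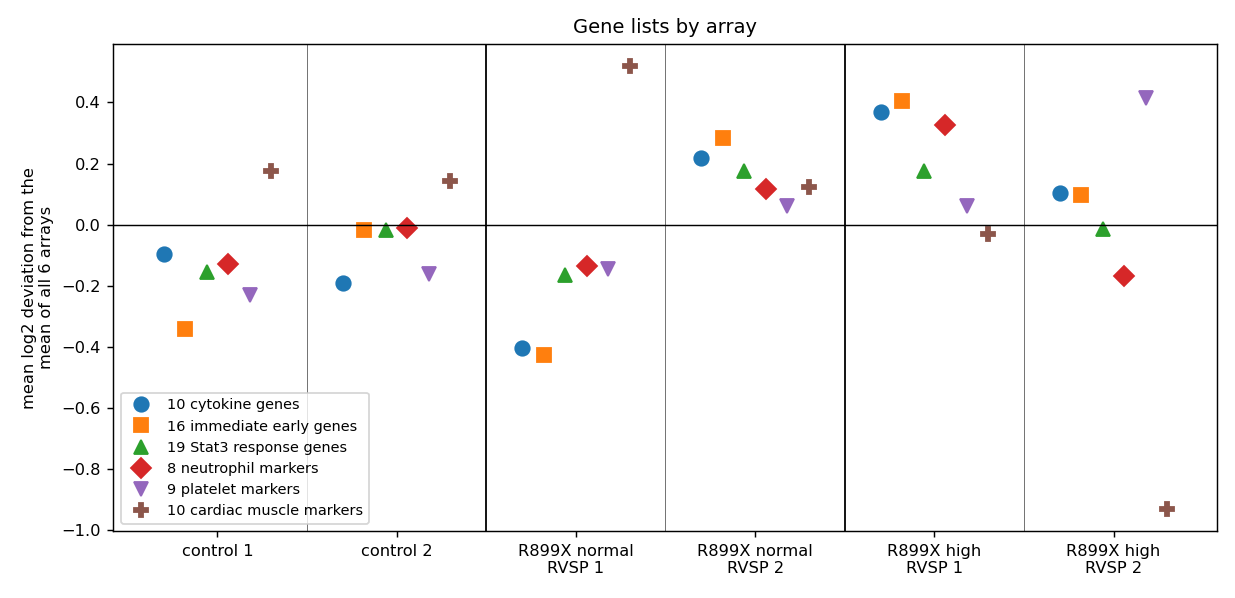
Mean log2 deviation from the mean of all 6 arrays, for the 10 cytokine genes and for 5 other gene lists, in each mouse. Vertical lines separate mice, with thicker lines between groups. The cytokine and immediate early averages are both lowest in normal RVSP 1 (-0.40 and -0.43) and highest in high RVSP 1 (0.37 and 0.41), while cardiac muscle markers are lowest in high RVSP 2 at -0.93. The Stat3 response average has the same lowest and highest arrays as the cytokines, at -0.165 and 0.176.

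Cells that make or answer these cytokines were followed through marker lists. The 8 measured neutrophil markers deviated by -0.13 and -0.01 in the controls, -0.13 and 0.12 in normal RVSP and 0.33 and -0.17 in high RVSP, with summed intensities of 42185 and 38390, 40520 and 47878, and 56303 and 39537. high RVSP 1, the array with the highest Osm, Csf3 and Il1b, was also the highest for this list by both measures; the lowest was high RVSP 2 by mean deviation and control 2 by sum. The 9 macrophage markers had sums of 27732 and 18892 in the controls, 19534 and 20054 in normal RVSP and 14900 and 23110 in high RVSP, so that the groups overlapped. T cell and innate lymphoid markers, of which 7 were measured, summed to 3940 and 4192, 3775 and 4250, and 4491 and 4354, the high RVSP mice being the highest. Within that list Gata3 ran against the sum, with 184 and 194 in high RVSP and 379 and 489 in the controls. S100a8 and S100a9 carried most of each neutrophil sum. Elane, another neutrophil marker, read 4.79 to 22.1, within the range of the Y-linked probe sets. The part of these cell types in the cytokine readings was not tested.

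Receptors of the cytokines were described next, for the 14 of 16 listed receptor genes that had a probe set with 1 symbol, all of which were tested. None passed in limma in normal RVSP against control, high RVSP against control or high against normal RVSP. In high RVSP against control 5 were higher and 9 lower, with a median of -0.09, where 49.3% of all tested probe sets were higher. There 1 lay higher and 5 lower without overlap, beside 19.1% and 18.2% of all tested probe sets. The 1 that was higher was Csf2ra, the ligand-binding chain for GM-CSF, at 734 and 696 in the controls, 900 and 794 in normal RVSP and 968 and 1033 in high RVSP. Its groups did not overlap and stood in that order, with differences of 0.24 ± 0.17 and 0.48 ± 0.17 from control. The share of all probe sets with the groups in this order was not counted, so nothing is read from it. Csf2rb2, a copy of the signalling chain Csf2rb found in mice, gave 476 and 477, 357 and 231, and 369 and 427, both transgenic groups below control by -0.70 ± 0.24 and -0.25 ± 0.24. Csf2rb itself read 1262 and 1226, 1328 and 793, and 1024 and 1193. Whether the probes of these near-identical genes keep them apart was not tested.

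In the IL-6 branch the shared subunit Il6st had 5869 and 4144 in the controls, 5087 and 4673 in normal RVSP and 4372 and 4270 in high RVSP. Its differences from control were -0.02 ± 0.19 and -0.19 ± 0.19. The specific chain Il6ra read 527 and 581, then 157 and 554, then 602 and 576, so that normal RVSP 1 was low for the receptor as for its ligand. Osmr, the oncostatin M receptor, gave 2340 and 2294, 1829 and 2206, and 1857 and 2282, with both transgenic groups below control by -0.21 ± 0.17 and -0.17 ± 0.17. Lifr, the receptor of Lif, had 5156 and 4817, 6720 and 4990, and 4507 and 4677, high RVSP being lowest. Tnfrsf1a, the main Tnf receptor, gave 3422 and 2994, 3564 and 2963, and 2657 and 2775, with high RVSP below both other groups by -0.24 ± 0.16 and -0.26 ± 0.16. For Csf1r, Csf3r, Il1r1, Il1r2, Il1rap and Tnfrsf1b the differences from control in high RVSP lay between -0.27 and 0.07 with standard errors of 0.18 to 0.31.

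**Figure D4:**
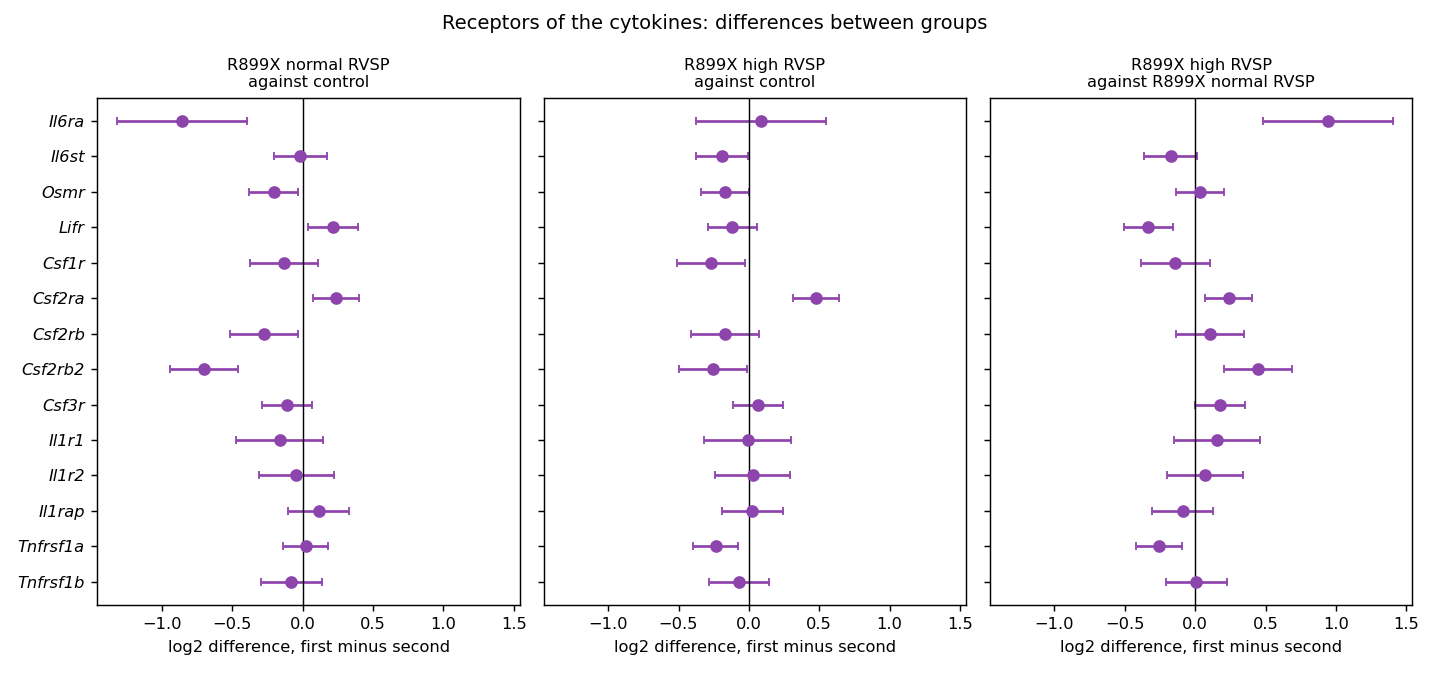
Differences on the log2(intensity + 16) scale for 14 receptor genes in the 3 comparisons, brightest probe set of each gene, with limma standard errors. Csf2ra is above 0 against control in both transgenic groups, at 0.24 and 0.48, and Il6ra has the widest error, 0.46.

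Downstream of the receptors, none of the 8 Jak and Stat transducers measured and tested passed in any of the 3 comparisons. Tyk2 and Ptpn11, a kinase and a phosphatase of the pathway, both had -0.30 in high RVSP against control, and Stat3 had 0.15 ± 0.23. Stat3 response genes had 12 of 19 higher and 7 lower in high RVSP against control, where 49.3% of tested probe sets were higher. The median of the list was 0.20, with 5 higher and 3 lower without overlap, beside 19.1% and 18.2% of tested probe sets. None passed there or in the other comparisons, of the 18 tested. The members with the largest difference were Junb (0.68 ± 0.49) and Fos (0.63 ± 0.33), both also counted as immediate early genes. Socs3, the feedback inhibitor that Stat3 induces, read 887 and 876 in the controls, 933 and 1266 in normal RVSP and 1520 and 951 in high RVSP. All 4 transgenic mice were above both controls, by 0.30 ± 0.25 and 0.44 ± 0.25. Cebpd of the same list stood in that order too, while Pim1 and Osmr had all 4 transgenic mice below both controls. Pim1 read 953 and 839 in the controls, 482 and 810 in normal RVSP and 751 and 683 in high RVSP. The share of all probe sets in either order was not counted.

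NF-kappaB signal and response genes had 11 of 23 higher and 12 lower in high RVSP against control, where 49.3% of tested probe sets were higher. The median of the list was -0.03, and 0 of the 20 tested passed in each comparison. The tested members with the largest differences were Ptgs2, the inducible cyclooxygenase (0.53 ± 0.48), and Zc3h12a, a ribonuclease that degrades Il6 messages (0.43 ± 0.27). Ptgs2 read 718 and 961 in the controls, 514 and 1756 in normal RVSP and 1393 and 1042 in high RVSP. Like Il6, it had both its lowest and its highest reading among the normal RVSP mice. Further ligands of the IL-6 family, 4 of 8 measured, had Ctf1 at 0.06 ± 0.23 and Clcf1 at -0.15 ± 0.22, and 0 of the 3 tested passed. Of other IL-1 and TNF family ligands 8 of 12 were measured and 0 of the 5 tested passed. Ltb, lymphotoxin beta, stood at 0.35 ± 0.20 and Tnfsf13b, the B cell factor BAFF, at -0.31 ± 0.21.

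Across the 6 arrays, the gene most like Il6 among 12081 searched was Zfp36l1, an AU-rich element binding protein of the Zfp36 family, with a Pearson r of 0.989 on the log2 scale. It read 10750 and 10418 in the controls, 8822 and 11884 in normal RVSP and 11804 and 11263 in high RVSP. The nearest genes to Csf2, Csf1, Il1b, Osm and Il33 were Pcyt1a (0.993), Rpp30 (0.992), Kif9 (0.989), Strada (0.977) and Cep131 (0.977). With 6 arrays and so many genes searched, such values describe likeness only. Within the cytokines, Il6 and the brighter Lif probe set had r = 0.890, Osm and Csf3 0.873, Il6 and Tnf 0.771, and Il1b and Il33 -0.81, over the same 6 arrays.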

How the data were processed

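The authors deposited a table of intensities on a linear scale, with a value for each probe set on each array. Per the labels' protocols, right lung was flushed after heparin, RNA was column-purified and the label was biotin. How probes were summarised is not stated by the sources at hand. The 2% trimmed mean was 500.0 as an average over the 6 arrays, and single arrays were not listed. From this round value a common scaling by the authors was assumed. Median intensities were 128 to 141. No further normalization was applied (log2 medians spanned 0.13). After log2(intensity + 16), 64 control probe sets and the lower 40% by mean over all arrays were left out, leaving 27022. Group means were fitted to the 6 arrays in limma 3.58.1 (R 4.3.3) with an intensity trend, two-sided, adjusted by Benjamini-Hochberg at 0.05; the procedure was tested on simulated data. The platform table gave 34958 probe sets 1 symbol, 932 several and 9211 none. A gene with several probe sets is represented by its brightest in lists. The number of mice, 2 per group, limits every precision.

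Members and lists were chosen with earlier results of these data known. Named genes were all members, their receptors and the gene most correlated with each tested member. Up to 2 tested genes per pathway list with the largest difference in high RVSP against control were also named. Other genes were added after their values were seen (Socs3, Cebpd, Pim1, Stat3, Gata3, Sftpc, Fos, S100a8, S100a9, Elane, Cpa3, Mcpt8, Ms4a2, Kit, Hdc and Gata2). Alternatives covered the pseudocount, quantile normalization, the filter, the trend, moderation, the groups fitted and each array in turn.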

Additional observations from a re-analysis of the deposited data

How the results depend on the processing

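No cytokine probe set passed in the 3 comparisons with other pseudocounts (1 or 64), quantile normalization, no filter, no trend, no moderation or only the arrays of the groups compared; the last of these passed 1 probe set of the whole array in high RVSP against control. Leaving out single arrays, the number passing on the array ran from 0 to 4 in normal RVSP against control, 0 to 2 in high RVSP against control and 0 to 43 in high against normal RVSP, the highest without normal RVSP 2. Where 1 array was left in a group, it was assumed to vary like the others. The median difference of the cytokine probe sets ran from 0.006 to 0.22, from 0.22 to 0.45 and from 0.01 to 0.24 in the same order. Without control 1 and normal RVSP 1 together, a fit chosen after seeing the data, 131, 313 and 56 probe sets passed and the medians of the former pair were 0.34 and 0.45; Il6 was the cytokine among the 131. The cause was not tested. With 1 array left out, 7 of 60 single-gene differences changed sign in high RVSP against control. The counts were 10 of 60 in normal RVSP against control and 8 of 60 in high against normal RVSP. Each 60 includes fits without an array of the third group, which cannot alter the difference. The shares therefore understate how far the differences depend on single arrays. No paired analysis was possible because the labels give no replicate numbers that groups share. Dim readings (Csf3, Tnf, Lif and Il11) have no test in the main fit and were included in the setting without the filter.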

Other observations

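Factors that control how long cytokine messages last were measured beside them. In high RVSP against control 7 of 8 were higher and 1 lower, where 49.3% of all tested probe sets were higher. The median of these factors was 0.10, against -0.004 over all tested probe sets, with 0 passing in limma. The higher differences ran from 0.005 to 0.61. Zfp36, which speeds the decay of Tnf messages, read 1750 and 2926 in the controls, 2324 and 3246 in normal RVSP and 3828 and 3119 in high RVSP, a difference of 0.61 ± 0.27 from control in the last group. Rc3h1, roquin, ran the other way, at 1840 and 2429, 1484 and 1747, and 1682 and 1221, with a difference of -0.56 ± 0.22. Both transgenic groups were below the controls for it without overlap. The share of all probe sets that did so in both groups was not counted.

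Mast cells and basophils are a further source of Il6 and Tnf, and their markers had overlapping groups by summed intensity. The sums were 5945 and 6605 in the controls, 6254 and 6958 in normal RVSP and 6232 and 6569 in high RVSP. Kit, Hdc and Gata2 carried most of each sum. Without overlap, Cpa3, Mcpt8 and Ms4a2 were lower and Kit higher in normal RVSP than in control. Of all probe sets, 17.1% were lower and 13.3% higher in this way. By mean deviation, normal RVSP 1 was lowest (-0.34) and normal RVSP 2 highest (0.24). Fibroblast markers summed to 45804 and 42055, 49343 and 45516, and 47249 and 46632. Mesothelial markers were highest in high RVSP 2, with a sum of 9846 against 6992 to 8659 elsewhere. Alveolar type 2 markers summed to 97097 to 126189 and were highest in control 1. Platelet markers summed to 7521 in high RVSP 2 against 3646 to 5146 elsewhere, and cardiac muscle markers to 12346 there against 23843 to 34356.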
